A study of Oryza sativa with 12 samples.

Results

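A total of 53 of the 35679 genes in the count table were read in leaves of one rice cultivar and nearly absent from the other, 16 in Kitaake only and 37 in Nipponbare only. Both are japonica cultivars. The genes were chosen on CPM, the reads of a gene divided by all counted reads of its library, times 1000000. A gene was taken when it exceeded 5 CPM in all 6 libraries of one cultivar and stayed under 0.5 CPM in all 6 libraries of the other. These values define the 2 sets, so the difference between the cultivars is described here and was not tested.

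The libraries came from a study of OsbZIP62, a bZIP transcription factor of rice, in leaves of unstressed plants at the four-leaf stage grown in culture solution. There were 4 groups of 3 biological replicates, each a pool of 30 plants. Wild-type Kitaake was set beside OsbZIP62V, line OE1, which overexpresses OsbZIP62 fused to the transcriptional activation module VP64. Wild-type Nipponbare was set beside osbzip62, the homozygous CRISPR/Cas9 mutant line C54. The study's methods place OE1 in Kitaake and C54 in Nipponbare, and each engineered group was 1 line. The 2 groups of a cultivar are called its background below, Kitaake-background for Kitaake and OsbZIP62V, and Nipponbare-background for Nipponbare and osbzip62.

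Cultivars of one species do not carry the same genes. In rice, some genes are present in one genome and missing or rearranged in another, others are intact but silent in a given tissue, and families of disease resistance genes are a well known example of loci that differ in content and sequence between cultivars. RNA sequencing reads only the transcript. Reads from both cultivars were aligned to the IRGSP-1.0 genome, which is the assembly of Nipponbare. For a gene with no reads in Kitaake, a missing gene, an unexpressed gene and reads too different to align therefore cannot be told apart. A gene read only in the Kitaake background is one whose locus is in the Nipponbare reference. Whether its reads came from the same locus of Kitaake was not tested.

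The libraries held from 9224755 counted reads (Kitaake 1) to 19759728 (Kitaake 3), and from 22922 to 26139 genes had at least 1 count. OsbZIP62 itself was at 0.434, 0.294 and 0.101 CPM in Kitaake, at 1152, 1071 and 992 CPM in OsbZIP62V, at 0.177, 0.782 and 0.0549 CPM in Nipponbare, and at 1.03, 0.641 and 0.338 CPM in osbzip62. Its high level was found in the OsbZIP62V libraries only. The identifier read as OsbZIP62, OS07G0686100, was paired with it through the fold change that the study printed for its locus. The high level is therefore part of how the gene was identified and does not check the OsbZIP62V label. An edit by CRISPR/Cas9 need not change the level of a transcript, so these values do not check the mutant label. None of the 53 identifiers was paired with a gene name in the sources used here, so the genes are given by identifier. For the same reason leaf markers were not looked up, and the tissue label was not checked. In these identifiers the digits before the G give the chromosome and those after it the order along it.

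The 16 Kitaake genes were 0.151% of the 10617 genes above 5 CPM in every Kitaake-background library. Their means over the 6 libraries ran from 6.69 to 59.97 CPM, with a median of 19.1 CPM, against 26.6 CPM for all genes above 5 CPM there. OS11G0696600 took the largest share of reads, with 49.0, 57.8 and 74.4 CPM in Kitaake and 59.4, 56.4 and 62.7 CPM in OsbZIP62V. In the Nipponbare background its 2 reads fell in 2 libraries, at 0.0549 CPM in Nipponbare 3 and 0.0540 CPM in osbzip62 1. That is a ratio of 3256, with a 95% counting interval from 901 to 26889.

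OS01G0598900 was the steadiest of the Kitaake genes, with a coefficient of variation of 8.24% over the 6 libraries. It had 27.3, 25.8 and 27.2 CPM in Kitaake and 27.4, 30.7 and 31.8 CPM in OsbZIP62V. No read was counted in any of the 6 Nipponbare-background libraries, so its level was at least 1008-fold higher in the Kitaake background (3 counts over the 6 libraries taken as the limit). OS04G0244201 had 25.4, 32.4 and 19.2 CPM in Kitaake and 31.4, 26.2 and 29.3 CPM in OsbZIP62V, with overlapping groups and 1 read in the Nipponbare background. OS06G0215900 reached 35.1, 37.7 and 27.1 CPM in Kitaake and 25.6, 26.8 and 33.7 CPM in OsbZIP62V, with 1 read in the Nipponbare background. OS04G0206500 varied more, with 14.2, 31.3 and 23.7 CPM in Kitaake and 28.3, 39.3 and 15.1 CPM in OsbZIP62V, and both of its groups held a low and a high library. Over the 16 genes, the coefficient of variation across the 6 libraries had a median of 22.9%, against 18.8% for all genes above 5 CPM in that background.

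CPM grows with the length of a gene. On the per-length scale, RPKM (CPM divided by a gene's length in kilobases), the order changed. The lengths are those behind the deposited RPKM, and the sources used here do not say whether they count introns. OS09G0358000, with a length of 673 bp, was the highest of the Kitaake genes at 31.5 RPKM, followed by OS04G0314500 at 24.8 RPKM and OS06G0215900 at 21.6 RPKM. OS11G0696600, of 3250 bp, was at 18.5 RPKM and OS09G0355400, of 9088 bp, at 3.29 RPKM. All 16 genes lay between 2.67 and 31.5 RPKM. The set had a median length of 1980.5 bp, against 3487 bp for all genes above 5 CPM in the Kitaake background.

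The 37 Nipponbare genes were 0.356% of the 10402 genes above 5 CPM in every Nipponbare-background library. Their means ran from 6.73 to 218 CPM, with a median of 15.2 CPM against 25.7 CPM for all such genes. OS10G0138100 took the largest share of reads, with 124, 180 and 217 CPM in Nipponbare and 280, 231 and 275 CPM in osbzip62. It had 8 reads in the Kitaake background, none of its libraries there passing 0.216 CPM. The 2 Nipponbare-background groups did not overlap for this gene, the mutant being the higher. Of all genes tested, 25.2% had groups without overlap, in one direction or the other. By the edgeR test described below, its log2 fold change was 0.39 (SE 0.31, edgeR adjusted p = 0.551), so it was not called.

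OS08G0413500 was read at 64.9, 69.2 and 59.6 CPM in Nipponbare and at 63.5, 76.7 and 68.2 CPM in osbzip62. It had no count in any Kitaake-background library, a level at least 2200.2-fold higher in the Nipponbare background and the highest such limit of the 18 genes without a count. OS06G0582600 was also without a count in the Kitaake background and stood at 27.7, 38.0 and 49.4 CPM in Nipponbare and 45.6, 58.7 and 62.7 CPM in osbzip62. OS02G0310200 had 83.6, 68.3 and 49.2 CPM in Nipponbare and 69.7, 80.3 and 77.7 CPM in osbzip62, with 3 reads in the Kitaake background. The groups of both genes overlapped, so neither separated the mutant from its wild type.

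Other genes with many reads were OS09G0319701 (mean 64.2 CPM, SD 12.3, n = 6), OS02G0734400 (mean 48.9 CPM, SD 21.2, n = 6), OS11G0102200 (mean 38.0 CPM, SD 6.99, n = 6) and OS09G0343200 (mean 37.04 CPM, SD 4.36, n = 6). OS09G0343200 had 1 read in the Kitaake background, in OsbZIP62V 1. Per length, OS09G0319701 was the highest of the set at 69.6 RPKM, followed by OS08G0413500 at 54.7 RPKM and OS02G0310200 at 47.0 RPKM. OS10G0138100, of 9865 bp, was at 22.1 RPKM. The set ran from 1.32 to 69.6 RPKM. Its lengths spanned 490 to 16808 bp with a median of 2424 bp, against 3497 bp for all genes above 5 CPM in that background, and 12 of the 37 were longer than 5000 bp, where 26.1% of all such genes were. Of the Kitaake genes 1 of 16 was, where 26.0% were. The median coefficient of variation was 19.1%, close to the 19.3% of all such genes.

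**Figure D1:**
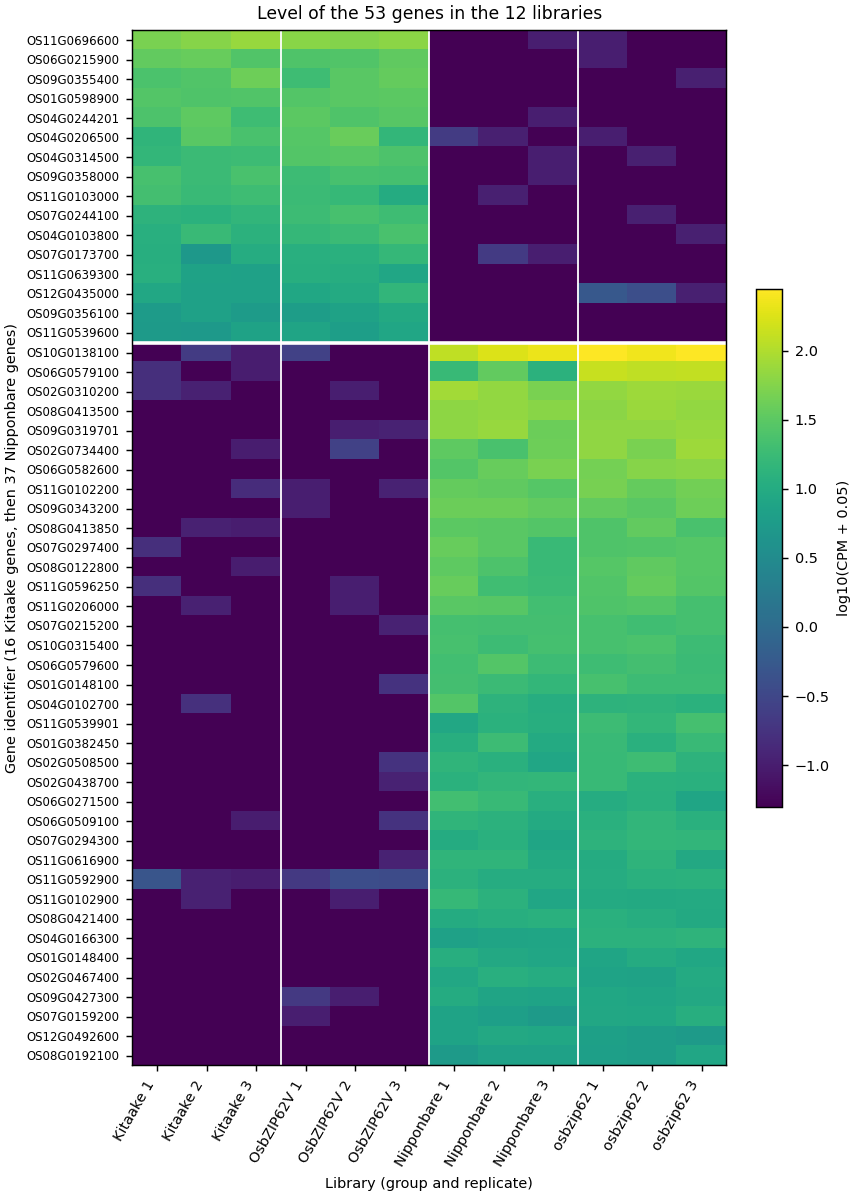
Level of the 53 genes (rows, ordered within each set by mean CPM) in the 12 libraries (columns), coloured by log10(CPM + 0.05). The upper 16 rows are bright in the 6 Kitaake-background libraries and the lower 37 in the 6 Nipponbare-background libraries, and the faint cells on the dark side are mostly 1 or a few reads, with OS12G0435000 and OS11G0592900 as the clearest exceptions.

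Summed over its 16 genes, the Kitaake set took 301 to 366 CPM in each Kitaake-background library and 0.169 to 0.647 CPM in each Nipponbare-background library. That was 33684 reads against 36. The Nipponbare set took 890 to 1275 CPM in its own background and 0.455 to 1.00 CPM in the other, or 117359 reads against 72. The highest sum on the low side was 0.215% of the lowest sum on the high side for the Kitaake set and 0.113% for the Nipponbare set.

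The remaining reads were uneven. In the other cultivar, 4 of the 16 Kitaake genes and 14 of the 37 Nipponbare genes had no count at all, 9 and 18 had from 1 to 3 counts, and 3 and 5 had more than 3. OS12G0435000 was at 8.67, 6.89 and 6.88 CPM in Kitaake and 8.41, 9.78 and 14.8 CPM in OsbZIP62V. Its 16 reads in the Nipponbare background all came from the mutant, at 0.486, 0.350 and 0.0564 CPM, while the 3 wild-type Nipponbare libraries had none. OS11G0592900 was the only gene with reads in all 6 libraries of the other background. It stood at 10.5 to 12.8 CPM in the Nipponbare-background libraries and at 0.0506 to 0.434 CPM in the Kitaake-background libraries, a ratio of 56.5 with a 95% counting interval from 36.4 to 92.8. These intervals and the limits taken from 3 counts cover counting error only.

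Several genes sat close to the thresholds. Among the Kitaake genes, OS07G0173700 passed with a lowest library of 5.003 CPM and OS11G0539600 with 5.30 CPM, while OS07G0492100 (lowest 4.69 CPM) and OS09G0356800 (lowest 4.58 CPM) fell outside. On the low side OS12G0435000 passed at 0.486 CPM and OS04G0206500 at 0.177 CPM, while OS01G0824700 (highest 0.507 CPM) and OS11G0684100 (highest 0.620 CPM) did not. Among the Nipponbare genes, OS07G0159200 (lowest 5.43 CPM), OS12G0492600 (lowest 5.52 CPM), OS11G0592900 (highest in the other background 0.434 CPM) and OS02G0734400 (0.220 CPM) were nearest inside. OS11G0225300 and OS06G0582400 (both with a lowest library of 4.88 CPM), OS11G0204100 (highest 0.650 CPM) and OS04G0630500 (highest 0.691 CPM) were nearest outside.

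The genes were spread over 10 of the 12 chromosomes. Chromosome 11 held 11 of the 53, 4 from Kitaake and 7 from Nipponbare, although it had the fewest genes above 5 CPM, 440 in the Kitaake background and 433 in the Nipponbare background. Chromosomes 4, 6, 7 and 9 held 6 each, chromosomes 2 and 8 held 5 each, chromosome 1 held 4, and chromosomes 10 and 12 held 2 each. Chromosomes 3 and 5 held none, with 1581 and 893 genes above 5 CPM in the Kitaake background. All 5 genes on chromosome 2, all 5 on chromosome 8 and both on chromosome 10 were Nipponbare genes, and 4 of the 6 on chromosome 4 were Kitaake genes. No test was made of this distribution.

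**Figure D2:**
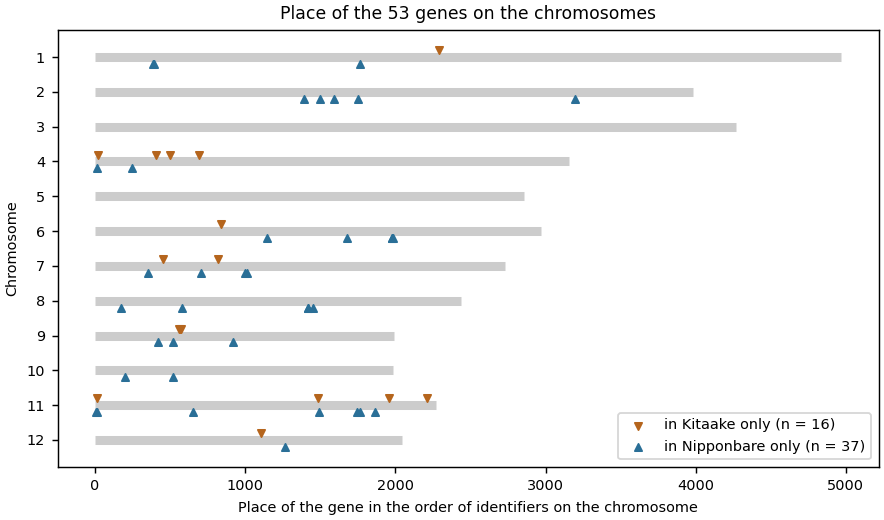
Place of the 53 genes along the 12 chromosomes, by the order of identifiers in the table, with grey bars as long as the number of identifiers on each chromosome. Downward marks are the 16 Kitaake genes and upward marks the 37 Nipponbare genes, and chromosomes 3 and 5 have none while chromosome 11 has 11.

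Members also lay beside one another. Steps are counted in the order of identifiers, 1 step being the next gene in the table, and the limit of 10 steps was chosen after the values were seen. There were 10 pairs of consecutive members within 10 steps, 7 of the same set and 3 of a Nipponbare gene and a Kitaake gene. OS08G0413500 and OS08G0413850 were adjacent, and OS01G0148100 and OS01G0148400 were 2 steps apart with an intervening gene under 1 CPM in all 12 libraries.

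The stretch on chromosome 6 from OS06G0579100 to OS06G0582600 held 12 genes, of which 3 were members. In 7 of the 9 others, every Nipponbare-background library was above every Kitaake-background library, and 5 of these 7 had no count in the Kitaake background. OS06G0579201, 1 of these 5, was under 1 CPM in all 12 libraries, at 0.0540 to 0.676 CPM in the Nipponbare background. Of all genes in the count table, 2% had no overlap in this direction. The stretch was picked after its values were seen, so the count is a description and is not tested against that share. The highest was OS06G0580100, at 928, 873 and 989 CPM in Nipponbare and 1259, 1228 and 1399 CPM in osbzip62. It missed the rule because 3 of its Kitaake-background libraries passed 0.5 CPM, the highest being Kitaake 1 at 0.867 CPM, yet its mean there was 0.498 CPM against 1113 CPM.

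Some genes in the middle of the stretch were read in both backgrounds or went the other way. OS06G0581000 was at 71.3 to 97.7 CPM in the Kitaake background and 39.7 to 75.7 CPM in the Nipponbare background, and OS06G0581300 at 23.3 to 32.7 CPM and 41.6 to 60.7 CPM. Both were read in all 12 libraries, the first with overlapping groups and the second higher in the Nipponbare background. OS06G0581151 went the other way, at 1.97 to 3.68 CPM in the Kitaake background and at most 0.169 CPM in the Nipponbare background. The next gene after the stretch, OS06G0583400, was at 87.9 CPM (SD 9.11, n = 6) in the Kitaake background and 80.9 CPM (SD 9.99, n = 6) in the Nipponbare background.

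On chromosome 9 the direction was the opposite. From OS09G0355400 to OS09G0358000 there were 11 genes, 3 of them members, OS09G0355400, OS09G0356100 and OS09G0358000. In 6 of the 8 others every Kitaake-background library was above every Nipponbare-background library, and 3 of the 6 had no count in the Nipponbare background. The share of all genes without overlap in this direction was 3.08%, and this stretch too was picked after its values were seen. No gene of the stretch was above 5 CPM in all 12 libraries, and 2 were under 1 CPM throughout.

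Several genes between these members were also read. OS09G0356800 had 13.1, 13.9 and 15.1 CPM in Kitaake, 4.58, 5.82 and 8.98 CPM in OsbZIP62V and at most 0.0591 CPM in the Nipponbare background. OS09G0357400 averaged 20.5 CPM against 1.16 CPM, and OS09G0356200 averaged 5.11 CPM against 0.161 CPM. OS09G0357300 had a mean of 4.09 CPM and no read in the Nipponbare background. Directly before the stretch, OS09G0354900 (1.12 to 3.58 CPM) and OS09G0354300 (0.330 to 3.19 CPM) were also read in the Kitaake background only. Neither had a count in the Nipponbare background. Further back, OS09G0352400 was alike in both, at 13.1 CPM (SD 1.56, n = 6) in the Kitaake background and 13.3 CPM (SD 1.72, n = 6) in the Nipponbare background.

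Near the start of chromosome 11 the 2 sets met. OS11G0102900, a Nipponbare gene, was at 16.1, 12.6 and 8.17 CPM in Nipponbare and 9.82, 9.33 and 9.64 CPM in osbzip62, with 2 reads in the Kitaake background. The next identifier, OS11G0103000, was at 21.5, 17.2 and 19.2 CPM in Kitaake and 17.9, 16.4 and 10.05 CPM in OsbZIP62V, with 1 read in the Nipponbare background. These were the only members of opposite direction that were adjacent. Strand was not recorded by the library kit, so reads of overlapping genes cannot be assigned by strand, and whether these genes overlap was not tested.

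The same stretch, from OS11G0102200 to OS11G0102900, had 7 genes, 2 of them members. Of the 5 others, 3 were higher in the Nipponbare background without overlap, where 2% of all genes were. OS11G0102600 averaged 3.95 CPM there against 0.0631 CPM, and OS11G0102700 averaged 4.04 CPM against 0.101 CPM. OS11G0102800, also 1 of the 3, was under 1 CPM in all 12 libraries, at 0.486 to 0.946 CPM in the Nipponbare background. OS11G0103700, a few genes further on, averaged 13.8 CPM (SD 3.44, n = 6) in the Kitaake background and 14.6 CPM (SD 1.80, n = 6) in the Nipponbare background. The genes in between were mixed. OS11G0103100 overlapped, at 2.59 to 5.11 CPM in the Kitaake background and 2.42 to 5.40 CPM in the Nipponbare background. OS11G0103400 did not, at 0.542 to 1.18 CPM and 2.27 to 4.55 CPM.

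Opposite directions were found in 3 more places. OS11G0539600, a Kitaake gene (5.53, 5.30 and 7.09 CPM in Kitaake, and 7.55, 6.32 and 8.35 CPM in OsbZIP62V), was 3 steps before OS11G0539901, a Nipponbare gene (8.93, 12.5 and 10.97 CPM in Nipponbare, and 18.8, 15.2 and 21.6 CPM in osbzip62). Neither had a read in the other background. Between them OS11G0539800 was read in every library, at 8.94 CPM on average in the Kitaake background and 27.3 CPM in the Nipponbare background. On chromosome 4, OS04G0102700 (Nipponbare) and OS04G0103800 (Kitaake) were 8 steps apart with 3 of the 7 intervening genes above 5 CPM in all 12 libraries. On chromosome 7, OS07G0173700 (Kitaake) lay next to OS07G0173601, which averaged 7.49 CPM in the Nipponbare background against 0.00981 CPM but missed the rule because its lowest osbzip62 library was at 2.09 CPM.

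**Figure D3:**
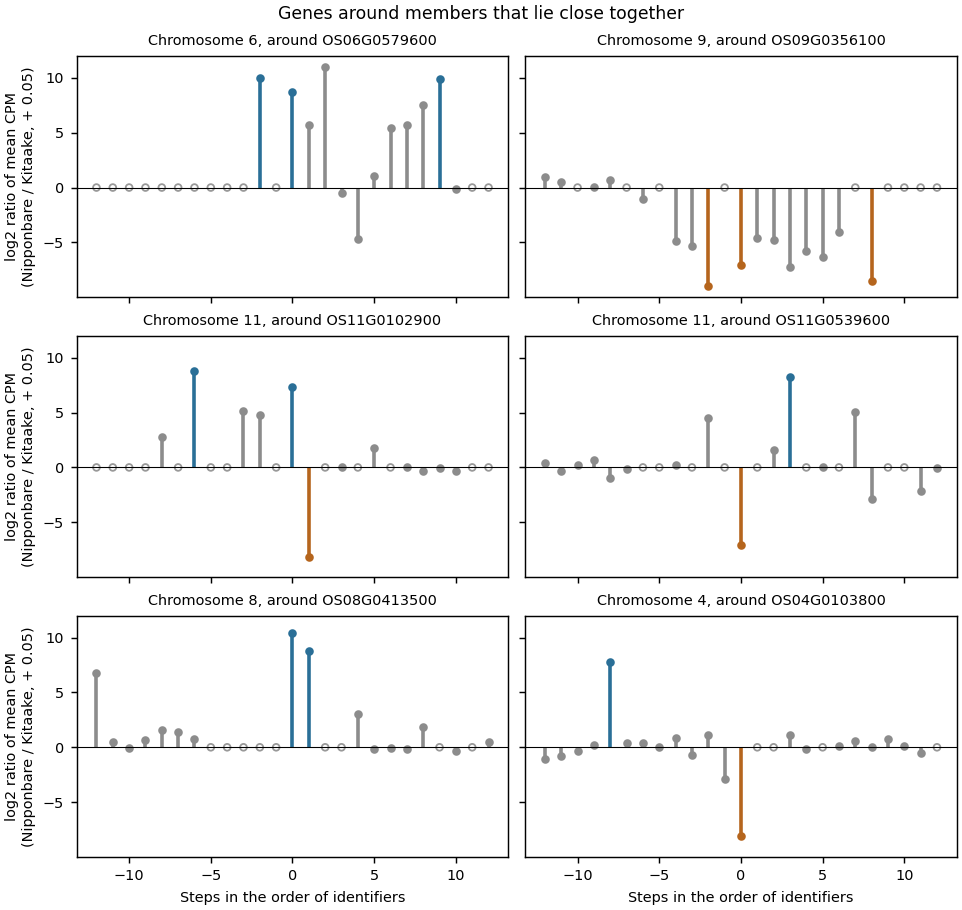
Log2 ratio of mean CPM (Nipponbare background over Kitaake background, 0.05 CPM added to each) for the genes up to 12 steps on either side of 6 members, chosen after the values were seen. Blue bars are Nipponbare genes, brown bars Kitaake genes, grey bars other genes, and open circles genes under 1 CPM in all 12 libraries, drawn at 0. The grey bars within the chromosome 6 and chromosome 9 stretches mostly point the same way as the members, and coloured bars of opposite direction stand side by side at the start of chromosome 11.

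The immediate neighbours of all 53 genes were counted in the same way. Of 99 genes 1 step from a member that were not members themselves, 55 were under 1 CPM in all 12 libraries and 34 had a mean above 1 CPM in at least 1 background. Of these 34, 17 had means within 2-fold of each other in the 2 backgrounds, against 17355 of 19786 genes (87.7%) over the whole table. The whole-table share was not matched for level, and 10 of the 34 were above 5 CPM in all 12 libraries. A ratio over 8-fold was found in 9 of the 34, 6 higher in the Nipponbare background and 3 higher in the Kitaake background. Over the whole table it was found in 238 and 127 of the 19786 genes, the members included. Some of these genes lie in the same stretch, so they are not independent of each other, and no test was made.

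Whether the genes also differed between an engineered line and its wild type was asked within each cultivar. The rule asked for over 5 CPM in all 6 libraries of a background, which are the libraries compared here, so a gene that fell to a low level in either group could not be a member. The counts of calls below are therefore partly set by the choice of genes and are given as a description. In OsbZIP62V against Kitaake, edgeR's quasi-likelihood test called 0 of the 16 Kitaake genes at an adjusted p under 0.05 and a fold over 2, where 5.93% of the 19864 genes tested, and 4.42% of those above 5 CPM in all 6 libraries, were called. DESeq2 called 0 as well, where it called 9.93% of the genes it tested, and 2 of the 16 had an unadjusted p under 0.05, where 25.2% of all genes tested did. The log2 fold changes ran from −0.44 to 0.62 with a median of 0.17, against 0.02 for all genes tested, and 11 were above 0 and 5 below. The median size of the change regardless of direction was 0.22, against 0.33 over all genes tested and 0.25 over those above 5 CPM in all 6 libraries.

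OS04G0314500 had the largest change, from 15.0, 17.9 and 18.4 CPM in Kitaake to 28.0, 30.001 and 25.4 CPM in OsbZIP62V. The groups did not overlap, and the log2 fold change was 0.62 (SE 0.17, edgeR adjusted p = 0.0690). With 1 library left out, its edgeR adjusted p ran from 0.0326 (without OsbZIP62V 3) to 0.220 (without Kitaake 1). The log2 fold change stayed under 1 in each of these fits, the highest being 0.75 without OsbZIP62V 3. OS07G0244100 followed, with 13.01, 12.2 and 14.4 CPM against 18.3, 23.0 and 19.2 CPM and a log2 fold change of 0.52 (SE 0.17, edgeR adjusted p = 0.103). Neither passed the threshold. In all, the 2 groups did not overlap for 4 of the 16 genes, where 28.8% of all genes tested did not.

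In osbzip62 against Nipponbare, edgeR called 0 of the 37 Nipponbare genes, where 0.422% of the 20398 genes tested, and 0.365% of those above 5 CPM in all 6 libraries, were called. DESeq2 called 1, where it called 4.15% of the genes it tested, and 7 of the 37 had an unadjusted p under 0.05 in edgeR, where 16.9% of all genes tested did. The log2 fold changes had a median of −0.09, against −0.04 for all genes tested, and 16 were above 0 and 21 below. The median size regardless of direction was 0.26, against 0.32 over all genes tested and 0.23 over those above 5 CPM in all 6 libraries. The groups did not overlap for 8 of the 37, where 25.2% of all genes tested did not. For 36 of the 37 the log2 fold change was smaller than 1 in size.

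The exception was OS06G0579100, the first gene of the chromosome 6 stretch. It was at 16.5, 35.7 and 12.8 CPM in Nipponbare and at 138, 123 and 128 CPM in osbzip62, with 2 reads in the Kitaake background. Every mutant library was well above every wild-type library, and the log2 fold change was 2.42 (SE 0.38). Its adjusted p was 0.0569 in edgeR and 3.38e-08 in DESeq2. It passed the threshold under 5 of the 12 settings tried, and its adjusted p reached 0.269 in edgeR when 1 osbzip62 library was left out.

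Its neighbours did not share the change to that extent. OS06G0579600, 2 steps on, had 20.7, 27.9 and 18.5 CPM in Nipponbare and 19.4, 21.5 and 17.6 CPM in osbzip62, with a log2 fold change of −0.36 (SE 0.19, edgeR adjusted p = 0.390). OS06G0582600, at the end of the stretch, had a log2 fold change of 0.33 (SE 0.32, edgeR adjusted p = 0.627). OS02G0734400 was the next highest of the set, with 32.7, 23.3 and 41.1 CPM in Nipponbare and 66.4, 49.8 and 79.8 CPM in osbzip62 (log2 fold change 0.83, SE 0.32, edgeR adjusted p = 0.259). At the lower end, OS06G0271500 had 20.8, 17.0 and 11.7 CPM in Nipponbare and 10.4, 11.8 and 8.00 CPM in osbzip62 (log2 fold change −0.85, SE 0.19), and its groups overlapped by a single library. Its adjusted p was 0.103 in edgeR, 0.0122 in DESeq2 and 0.0485 in edgeR without Nipponbare 3, and the size of its change stayed under 1 in each. For 1 gene on its own, exact permutation of 3 and 3 libraries has 0.1 as its smallest possible p.

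**Figure D4:**
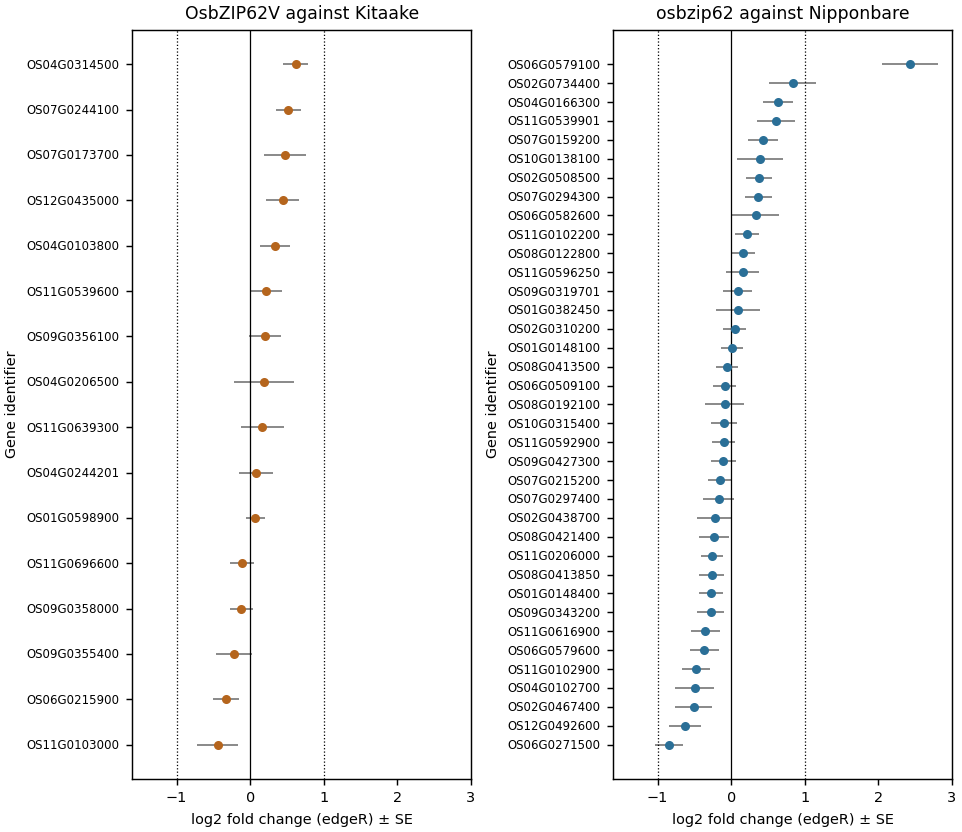
Log2 fold change (edgeR, point) with a standard error derived from its test statistic (bar) of the 16 Kitaake genes in OsbZIP62V against Kitaake and of the 37 Nipponbare genes in osbzip62 against Nipponbare, 3 libraries per group. Dotted lines mark a log2 fold change of 1 in either direction, and OS06G0579100 at 2.42 is the only point beyond them.

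Single libraries differed in level across the sets. Nipponbare 3 was the lowest of the 6 Nipponbare-background libraries for 18 of the 37 Nipponbare genes. The median log2 ratio of these genes to their own mean was −0.33 in that library, and that of all genes above 5 CPM in the background was −0.22. OsbZIP62V 3 was the highest of the 6 Kitaake-background libraries for 6 of the 16 Kitaake genes, with a median log2 ratio of 0.17 for them and 0.13 for all genes above 5 CPM. All 16 and all 37 genes stay by construction when 1 library is left out, because the rule asks every library to pass. Leaving out any 1 library added at most 3 and 4 others.

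The rule was also applied to 1 pair of groups at a time, so that genes chosen on some libraries could be read in others. On the wild types alone, 28 genes were in Kitaake only and 52 in Nipponbare only. In the engineered lines, 16 of the 28 (57.1%) and 37 of the 52 (71.2%) met the same thresholds. A gene that passes in both pairs of groups is a member by the rule, so these are the 16 and 37 members. The shares are a description and no separate check of the sets. The levels were still apart for most of the rest. For 26 of the 28, every OsbZIP62V library was above every osbzip62 library (10.8% of all genes). For 50 of the 52, every osbzip62 library was above every OsbZIP62V library (8.84% of all genes). The 26 and 50 include the 16 and 37 members, which cannot overlap by the rule.

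Chosen on the engineered lines, 22 genes were in OsbZIP62V only and 60 in osbzip62 only. The rule was met in the wild types by 16 (72.7%) and 37 (61.7%) of them, which are again the members. Between the 2 groups of a cultivar the same rule found few genes, none in Kitaake only and 10 in OsbZIP62V only, and none in Nipponbare only and 9 in osbzip62 only. OsbZIP62 itself was 1 of the 10.

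The genes that did not carry over fell into different kinds. OS09G0522100 was at 6.94, 10.1 and 7.24 CPM in Kitaake but at 0.593, 1.21 and 0.314 CPM in OsbZIP62V. OS11G0262600 was at 45.8, 23.2 and 6.09 CPM in Nipponbare, at 0.647, 0.117 and 1.18 CPM in osbzip62, and without a read in any Kitaake-background library. For this gene the wild-type libraries differed widely among themselves, and the mutant libraries were all lower. OS01G0647200 had the same shape at a higher level, with 375, 153 and 53 CPM in Nipponbare against 14.1, 1.57 and 25.8 CPM in osbzip62 and at most 0.126 CPM in the Kitaake background.

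In the other direction, 5 genes chosen on osbzip62 were under 0.5 CPM in all 9 other libraries, wild-type Nipponbare included. OS07G0115200 was the highest of them, at 128, 150 and 104 CPM in osbzip62, at 0 in all 3 Nipponbare libraries and at most 0.0589 CPM in the Kitaake background. OS08G0410900 was at 31.7, 31.0 and 29.6 CPM in osbzip62 and at most 0.391 CPM in Nipponbare. The other 3 were OS10G0485400 (26.8, 30.3 and 22.9 CPM), OS06G0204100 (17.5, 22.9 and 21.9 CPM) and OS03G0429900 (13.5, 19.2 and 17.6 CPM). All 5 were above 5 CPM in 1 mutant line and under 0.5 CPM in its wild type. With a single line, the line and the mutation cannot be told apart. In Kitaake 1 gene was of this kind, OS05G0381400, at 8.95, 10.7 and 9.42 CPM in OsbZIP62V and at most 0.168 CPM in the 9 other libraries.

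**Figure D5:**
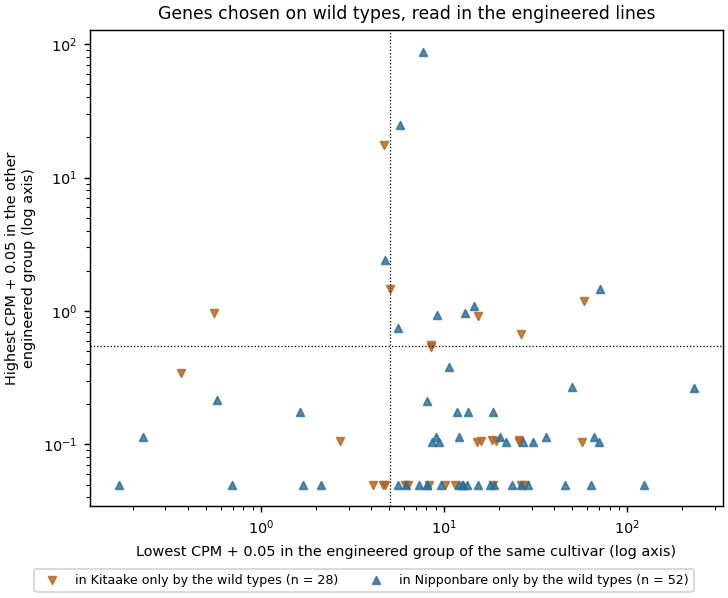
Genes chosen on the wild-type libraries alone (28 in Kitaake only, brown, and 52 in Nipponbare only, blue), placed by their lowest CPM in the engineered line of the same cultivar (horizontal, log axis) and their highest CPM in the other engineered line (vertical, log axis), 0.05 CPM added to both. Dotted lines are the thresholds of 5 and 0.5 CPM, and the 16 and 37 genes of the sets lie in the lower right field.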

How the data were processed

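Leaf RNA of the 4 groups was sequenced by the authors (TruSeq v2 kit, which does not mark strand). The submitters' processing notes and the study's methods name SeqPrep, Sickle, Bowtie2 2.2.3, HISAT2 2.1.0, HTSeq 0.6.1p2 and IRGSP-1.0, and the sources used here give neither the annotation release nor the counting mode. The authors deposited 1 table per library, with whole-number counts per gene, used for CPM and tests, and RPKM values, used for per-length levels and for gene lengths (identical in every library). Identifiers were set against a reference table of 39387 entries, and 1 of 35679 matched. CPM was computed on all counts without further scaling. Within each cultivar the engineered line was compared with its wild type by edgeR 4.0.16 (TMM, filterByExpr, quasi-likelihood, Benjamini-Hochberg over all genes tested), with DESeq2 1.42.0 as an alternative, in R 4.3.3. The SE printed with edgeR fold changes was derived from the test. It is the size of the log2 fold change divided by the square root of the quasi-likelihood F statistic. The edgeR fit was also run on simulated counts with known changes, and the outcome is not given here. The genes named are the 8 with the highest mean CPM in each set, those nearest the thresholds, those adjacent to another member and any called within a cultivar; others were named after their values were seen. The alternatives were other scalings, thresholds and filters, a replicate block, all 12 libraries in one fit, and leaving out each library. The members and lists were chosen with earlier results of these data known. Functional classes were not analysed here.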

Additional observations from a re-analysis of the deposited data

How the results depend on the processing

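With CPM scaled by TMM or by median-of-ratios size factors, the sets held 16 and 39 genes. Thresholds of 2 and 0.5 CPM gave 31 Kitaake and 70 Nipponbare genes, thresholds of 10 and 0.25 CPM gave 11 and 20, and 5 CPM with no count in the other cultivar gave 4 and 14. Wild-type libraries alone gave 28 and 52, and the engineered lines alone 22 and 60. Leaving out 1 library gave 16 to 19 Kitaake genes and 37 to 41 Nipponbare genes. By the rule it could not give fewer than 16 and 37. No Kitaake gene was called in OsbZIP62V against Kitaake under any alternative, while the number of all genes called there was 1178, 2297 with DESeq2 and 206 to 3059 with 1 library left out, and the median log2 fold change of the 16 genes ran from 0.0691 to 0.18. In osbzip62 against Nipponbare the number of all genes called was 86, 521 with all 12 libraries in one fit, 887 with DESeq2 and 0 to 531 with 1 library left out, and the median of the 37 genes ran from −0.10 to −0.0403. Among these 37, 0 or 1 gene was called with 1 library left out, and 1 gene with no filter on low counts, with all 12 libraries in one fit and with DESeq2. That gene was OS06G0579100 each time (log2 fold changes 2.43, 2.42 and 2.42, and 2.99 without Nipponbare 2 and 2.21 without Nipponbare 3, where it was also called). No gene changed direction past the threshold. The cause was not tested. Same-numbered libraries correlated at −0.278 to 0.393 in their deviations from the group means, so the numbers were not taken as pairs. With a replicate block, 1014 genes were called in OsbZIP62V against Kitaake and 0 in osbzip62 against Nipponbare, and 0 of the members in either. Most ratios between the cultivars rest on 3 or fewer counts on the low side.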
